A study of Oryctolagus cuniculus with 4 samples.

Results

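The genes described here are 120 developmental and lineage transcription factors of the rabbit, out of 13913 genes with a value in each library. They were taken by symbol, from the HOX, SOX, FOX, KLF, GATA, PAX, TBX, sine oculis, MSX, DLX, LHX, IRX, PITX, PRRX, TWIST, ZEB, SNAI, RUNX, TFAP2 and GLI families and TP63. 1 of the 120, TWISTNB, matched by its letters alone, since it encodes a subunit of RNA polymerase I and is no lineage factor. RefSeq lists 194 protein-coding rabbit genes (assembly mOryCun1.1) with symbols of these families, of which 117 were members here and 77 were not analysed here, among them TWIST1, SNAI2, KLF4, RUNX1 and SOX17.

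Hypertrophic scar (HS) was raised on the ventral ear surface of female wild-type rabbits by excising skin and perichondrium, and the 2 groups shared this injury. The HS group (2 libraries) had no treatment. In the drug-loaded MNs group (2 libraries), scars received microneedle patches, whose tips stay in the skin and release a fluorouracil derivative, weekly for 3 weeks. Each single-cell library came from the ventral epidermis and dermis of 1 tissue sample. The study describes these samples as biologically independent but does not say whether they came from different rabbits. P-values measure the spread between these libraries. A group with patches free of drug was not analysed here, so the effects of needles and of drug cannot be told apart.

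Transcription factors bind DNA and set which genes a cell uses. HOX genes lie in 4 clusters, A to D, and their order along each cluster follows the body axis along which they are used, so that fibroblasts of adult skin keep a record of their position. TP63, GATA3, KLF5 and the TFAP2 genes act in the epidermis, PRRX1, TBX15 and TBX18 in the mesenchyme of limb, head and trunk, SOX7 in blood vessels, GATA2 in mast cells and blood progenitors, and ZEB1 and ZEB2 repress epithelial genes in mesenchymal cells.

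Each library was scaled to a total of 1000000, and 1 unit below is 1 part of it. The depth was unknown, since the values used here carry no counts. The values average over all cells of a library, so that fewer cells of a type and less RNA per cell cannot be told apart. Mitochondrially encoded genes took 2.75% to 2.80% of the total in HS and 4.37% to 4.58% in drug-loaded MNs. HS replicate 1 was the lowest of the 4 libraries in 44.5% of the 9348 genes tested. Markers of the labelled tissue were present: summed fibroblast markers took 22526 to 22996 units in HS and 44682 to 48616 in drug-loaded MNs, and summed suprabasal keratinocyte markers 37252 to 52783 and 31629 to 41793 units. No listed marker of any cell type in the table was at 0 in all libraries. Cartilage markers, at 869 units in HS replicate 1, stood at 63.8 in HS replicate 2 and at 400 to 542 in drug-loaded MNs.

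To examine which lineage factors differed after drug-loaded MNs, the 63 of 120 members whose mean reached 1 unit were compared in a fit over all 9348 genes. Mesenchymal factors (PRRX1, TBX15, TBX18), HOXA2, HOXB5, RUNX2 and ZEB2 stood higher in drug-loaded MNs, at 1.65 to 2.66 times the HS mean, and SOX7 and LHX8 stood lower. LHX8 was tested through its HS values alone, since its mean in drug-loaded MNs was 0.333 units, and with a minimum mean of 5 units it was not tested and 1 lower member was left. None of these differences passed an adjusted p of 0.05 in limma. Of the 63 members, 0 passed, against 0.0428% of all genes (4 of 9348), which were 2 higher and 2 lower genes at 0.0214% each. The log2 fold change was above 0 in 37 of 63 members (58.7%), against 64.6% of all genes. At an unadjusted p under 0.05 there were 9 members (14.3%), against 8.65% of all genes. Of the 9, 7 were higher, or 11.1% of members against 7.26% of all genes, and 2 were lower, or 3.17% against 1.39%. These splits turned on single libraries: more were lower than higher without HS replicate 1, and more were higher than lower without HS replicate 2. Shares over all genes in those fits are not given here, so this change cannot be read as one of the members alone.

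The groups did not overlap in 26 members (41.3%), against 37.8% of all genes, so the share was near the background. Of these, 19 were higher in drug-loaded MNs (30.2%, against 26.6%) and 7 were lower (11.1%, against 11.2%). The median log2 fold change was 0.13 over the members and 0.12 over all genes tested. Fold changes are on the scale of log2(value + 1), which understates the change of low genes. Under median ratio scaling the median of all genes was -0.010 and that of the members was -0.0033, a shift against which each fold change has to be read. The share of higher genes among all genes at an unadjusted p under 0.05 went from 83.9% to 64.1% under that scaling and to 58.9% under quantile normalization, and among members from 77.8% to 70.0% and 66.7%.

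**Figure D1:**
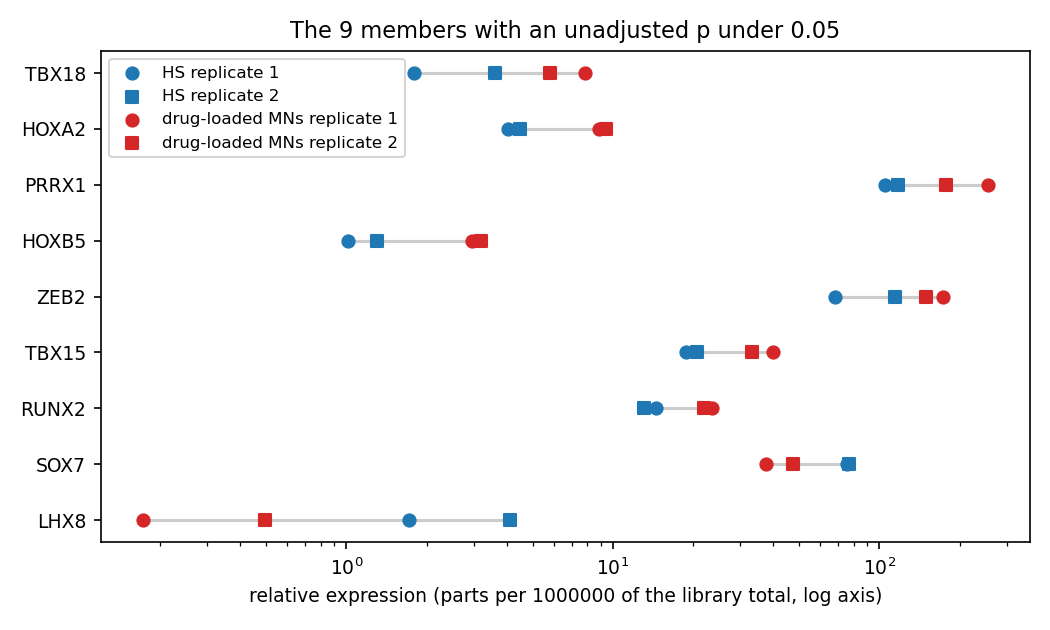
Relative expression (x axis, parts per 1000000 of the library total, log axis) of the 9 members with an unadjusted p under 0.05, 1 point per library, HS in blue and drug-loaded MNs in red. The red points lie to the right of the blue ones in 7 members and to the left in SOX7 and LHX8, where the HS points of SOX7 nearly coincide at 75.6 and 76.6.

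Mesenchymal patterning factors made up 23 members, of which 13 were tested, 10 were higher and 3 were lower, where 64.6% of all genes were higher. Their median log2 fold change was 0.25. It was 0.14 under median ratio scaling, with 9 of 13 higher, 0.17 under quantile normalization, with 8 of 13 higher, 0.38 with a minimum mean of 5 units and 0.49 without drug-loaded MNs replicate 2. At an unadjusted p under 0.05, 3 were higher and 1 was lower, against 7.26% and 1.39% of all genes, and without drug-loaded MNs replicate 1 these 4 went to 1. PRRX1 (ENSOCUG00000012272), a homeobox gene of limb and craniofacial mesenchyme and of dermal fibroblasts, stood at 105 and 118 units in HS and at 254 and 177 in drug-loaded MNs. The 2 HS libraries lay close together and below both drug-loaded MNs libraries, which lay further apart. The log2 fold change was 0.93 ± 0.25 (SE), with an adjusted p of 0.344 in limma, and without 1 library it ran from 0.67 to 1.19.

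TBX15 (ENSOCUG00000012320), a T-box gene of dermal mesenchyme and pigment patterning, stood at 18.8 and 20.6 units in HS and at 39.8 and 33.3 in drug-loaded MNs. Its log2 fold change was 0.85 ± 0.24 (SE), with an adjusted p of 0.363 in limma. TBX18 (ENSOCUG00000002026), which marks pericytes and dermal papilla precursors, stood at 1.79 and 3.59 units in HS and at 7.86 and 5.79 in drug-loaded MNs, a log2 fold change of 1.12 ± 0.35 (SE), with an adjusted p of 0.411 in limma. In all 3 genes drug-loaded MNs replicate 1 was the highest library and HS replicate 1 the lowest.

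Among the other T-box genes, TBX2 stood at 10.6 and 14.7 units in HS and at 19.4 and 18.4 in drug-loaded MNs. TBX3, its close relative, stood at 2.50 and 2.81 units against 4.15 and 2.66, so its groups overlapped. FOXS1 (ENSOCUG00000021480), a forkhead gene of pericytes and neural crest derivatives, stood at 19.5 and 24.3 units in HS and at 31.2 and 32.3 in drug-loaded MNs, with a log2 fold change of 0.53 ± 0.25 (SE), with an adjusted p of 0.629 in limma. Both groups were tight in FOXS1 and did not overlap.

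SOX4, a SOX gene active in many growing tissues, stood at 99.0 and 106 units in HS and at 115 and 124 in drug-loaded MNs. Its log2 fold change of 0.22 (SE 0.21) lay near the median of all genes. IRX5 stood at 55.5 and 68.5 units in HS and at 67.7 and 63.0 in drug-loaded MNs. Its log2 fold change was 0.08 and lay below 0 under median ratio (-0.060) and quantile scaling (-0.0032). IRX6, the next gene of that family, was at 19.9 and 22.5 units in HS and at 26.4 and 23.7 in drug-loaded MNs. FOXP2 (ENSOCUG00000001801) stood at 13.7, 26.5, 15.1 and 12.1 units in the order HS replicates 1 and 2 and drug-loaded MNs replicates 1 and 2. HS replicate 2 alone stood apart, and the log2 fold change was -0.47 ± 0.35 (SE), with an adjusted p of 0.796 in limma.

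LHX8 (ENSOCUG00000003641), a LIM homeobox gene of jaw and tooth mesenchyme and of forebrain neurons, stood at 1.71 and 4.09 units in HS and at 0.172 and 0.494 in drug-loaded MNs. The groups did not overlap, and the HS mean was 8.72 times the drug-loaded MNs mean. The log2 fold change was -1.49 ± 0.39 (SE), with an adjusted p of 0.344 in limma. LHX8 was the 1 tested member with a group mean under 1 unit. SIX4, a homeobox gene of muscle and placode precursors, had low values with overlap between the groups, at 1.23 and 1.34 against 1.39 and 1.05.

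Fibroblast markers moved with the mesenchymal factors: all 6 in the table were higher in drug-loaded MNs, and their median log2 fold change was 1.12. The collagen genes COL1A2 and COL3A1 made up 78.1% to 84.6% of the summed fibroblast markers. Set against that sum in the same library, PRRX1 took 4.56 and 5.22 units per 1000 in HS, against 5.69 and 3.65 in drug-loaded MNs. TBX15 took 0.818 and 0.915 per 1000 in HS, against 0.891 and 0.685 in drug-loaded MNs. On this scale the groups overlapped for PRRX1, TBX15 and TBX18. The part of the fibroblast markers in these differences was not tested. LHX8 took, per 1000 units of fibroblast markers, 0.0745 and 0.182 units in HS, against 0.00385 and 0.0102 in drug-loaded MNs. This separation was fixed in advance, since without overlap LHX8 was lower and all 6 markers were higher in drug-loaded MNs. Against each of the 6 fibroblast markers on its own, PRRX1 was lower for 2 and overlapped for 4. TBX15 was higher for 1, lower for 2 and overlapped for 3, and TBX18 was higher for 2 and overlapped for 4. All 4 mural (vessel wall) markers in the table were higher too, with a median log2 fold change of 0.55. Their sum was 373 and 686 units in HS, against 856 and 665 in drug-loaded MNs, with overlap. TBX18 and FOXS1 were not set against them.

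Outside the families, 10 of 19 tested genes of a list of other mesenchymal and vascular regulators were higher at an unadjusted p under 0.05, 0 were lower, and 0 passed the adjusted threshold. The share over all genes was 7.26% higher, and the 10 went to 6 under quantile normalization, to 4 without drug-loaded MNs replicate 1 and to 5 without drug-loaded MNs replicate 2. Among the 10, SHOX2 and EN1 had HS means under 1 unit (0.555 and 0.497) and were tested through their drug-loaded MNs values. With a minimum mean of 5 units, 7 of 14 tested genes of the list had an unadjusted p under 0.05. SHOX2, a homeobox gene of limb and heart, stood at 0.646 and 0.465 units in HS and at 4.75 and 3.55 in drug-loaded MNs. Its log2 fold change was 1.72, with an adjusted p of 0.264 in limma. OSR2, an odd-skipped gene of connective tissue, stood at 17.3 and 24.8 units in HS and at 56.4 and 58.0 in drug-loaded MNs, a log2 fold change of 1.42, with an adjusted p of 0.264 in limma. The list had a median of 0.72, with 15 of 19 higher, against 64.6% of all genes. The count was also 15 under median ratio and quantile scaling. It contains genes of endothelial and lymphatic cells as well as of fibroblasts.

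**Figure D2:**
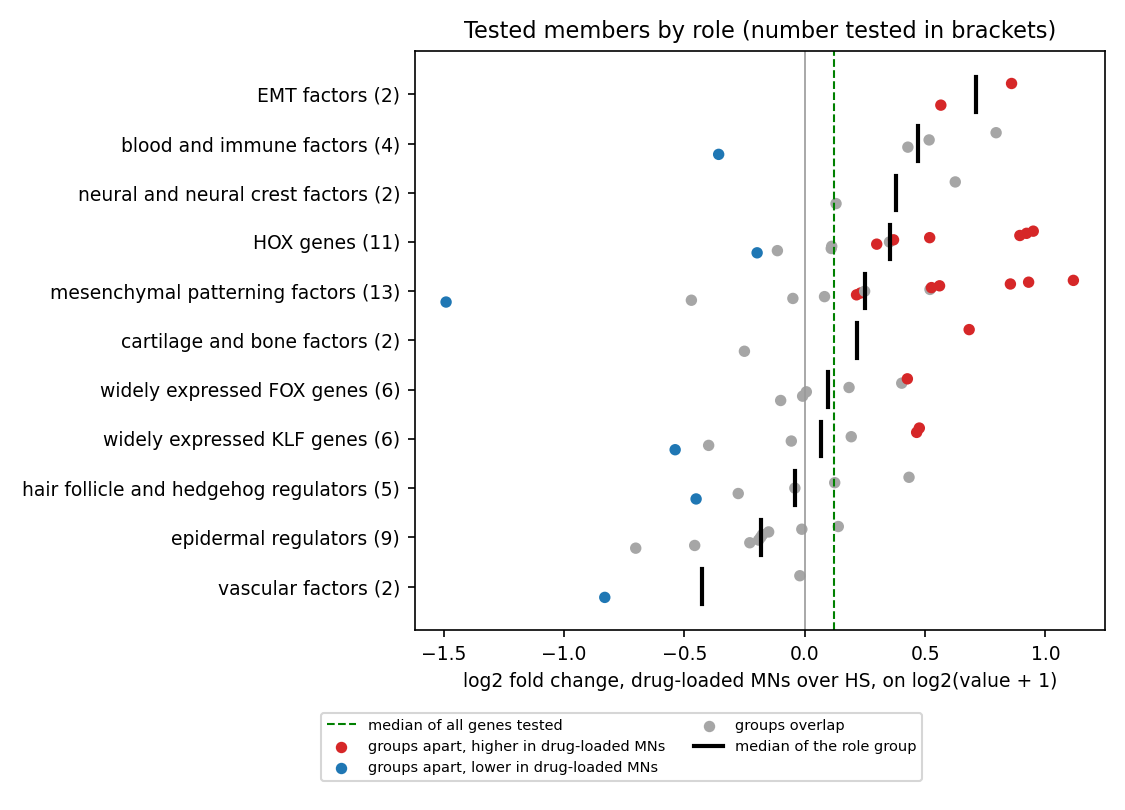
Log2 fold change of drug-loaded MNs over HS (x axis, on log2(value + 1)) of the tested members by role (y axis, number tested in brackets), with the median of each role as a black bar and the median of all genes tested (0.12) as a green dashed line. Coloured points are members whose groups did not overlap; 7 of them lie on the side of higher values among mesenchymal patterning factors, 6 among HOX genes and 0 among epidermal regulators, beside 26.6% of all genes.

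HOX genes gave 33 members. Of these, 11 were tested, 15 had lower values and 7 (HOXA11, HOXB7, HOXB8, HOXB13, HOXC10, HOXD12 and HOXD13) were listed at 0 in all libraries. Tested genes included HOXA2, HOXA3, HOXA4, HOXB2, HOXB5, HOXC13, HOXD1, HOXD3, HOXD9 and HOXD10. Summed over paralogues 1 to 4, HOX genes took 18.4 and 17.8 units in HS, against 28.4 and 31.3 in drug-loaded MNs. Paralogues 5 to 8 took 2.03 and 2.88 units in HS, against 4.53 and 4.45 in drug-loaded MNs. The largest part of this sum was HOXB5, the 1 tested gene of that block. Paralogues 9 to 13 took 15.9 and 17.7 units in HS, against 20.6 and 18.1 in drug-loaded MNs. The sum of paralogues 9 to 13 came mainly from HOXC13, HOXD9 and HOXD10. HOXB4, HOXC5, HOXC8, HOXC9, HOXD4 and HOXD8 were not analysed here, so these sums do not cover each cluster evenly.

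Of the 11 tested HOX genes, 9 were higher and 2 were lower, where 64.6% of all genes were higher. Under median ratio and quantile scaling, 7 were higher. The median log2 fold change was 0.35. HOXA2 (ENSOCUG00000015205), which patterns the mesenchyme that forms the outer ear, stood at 4.03 and 4.47 units in HS and at 8.83 and 9.43 in drug-loaded MNs. The libraries of each group lay close together, with a clear gap between the groups. On the log2 scale the fold change was 0.95 ± 0.27 (SE), with an adjusted p of 0.374 in limma, and it ran from 0.89 to 1.01 with 1 library left out.

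HOXB5 (ENSOCUG00000023093), a gene of the middle of its cluster, stood at 1.02 and 1.30 units in HS and at 2.97 and 3.20 in drug-loaded MNs. Its log2 fold change was 0.92 ± 0.29 (SE), with an adjusted p of 0.417 in limma. HOXB2, the cluster B counterpart of HOXA2, stood at 2.65 and 1.75 units in HS and at 2.80 and 8.13 in drug-loaded MNs. The difference in HOXB2 rested on drug-loaded MNs replicate 2, since drug-loaded MNs replicate 1 lay next to HS replicate 1. HOXA3 was at 1.06 and 1.17 units against 1.71 and 1.49. HOXA4, next to HOXA3 in the cluster, was lower, at 4.15 and 3.79 units in HS, against 3.69 and 2.99 in drug-loaded MNs.

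At the other end of the clusters, HOXC13 (ENSOCUG00000001156), a gene of hair and nail keratin expression, stood at 7.31 units in both HS libraries and at 9.91 and 6.40 in drug-loaded MNs. HOXD9 stood at 5.41 and 7.45 units in HS and at 7.25 and 6.64 in drug-loaded MNs, and HOXD10 at 2.84 and 2.66 against 2.93 and 2.05. The groups overlapped in all 3. The log2 fold changes of HOXC13 and HOXD9 were both 0.11, with 95% intervals from -0.60 to 0.82 and from -0.57 to 0.79, and both lay below 0 under median ratio and quantile scaling. In cluster D, HOXD1 stood at 1.40 and 1.41 units in HS and at 2.25 and 1.97 in drug-loaded MNs. HOXA9, not tested, was at 0.0785 and 0 units in HS and at 0.380 and 2.41 in drug-loaded MNs.

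HOXA2 took, per 1000 units of fibroblast markers, 0.175 and 0.198 units in HS, against 0.198 and 0.194 in drug-loaded MNs, where the groups overlapped. HOXB5 took 0.0442 and 0.0579 per 1000 in HS, against 0.0664 and 0.0658 in drug-loaded MNs, where they did not. Against single fibroblast markers HOXB5 was higher for 3 of 6 and overlapped for 3, and HOXA2 was higher for 2, lower for 2 and overlapped for 2. The TALE homeodomain genes, whose proteins bind DNA together with HOX proteins, had 7 tested genes. Of these, 5 were higher, against 64.6% of all genes (4 under median ratio and quantile scaling). At an unadjusted p under 0.05, 1 was higher, against 7.26% of all genes. That gene was MEIS2, at 25.0 and 27.8 units in HS and at 50.8 and 51.0 in drug-loaded MNs, with a log2 fold change of 0.92, with an adjusted p of 0.330 in limma. MEIS1 stood at 28.7 and 25.0 units against 41.0 and 37.1, a log2 fold change of 0.52, with an adjusted p of 0.606 in limma.

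**Figure D3:**
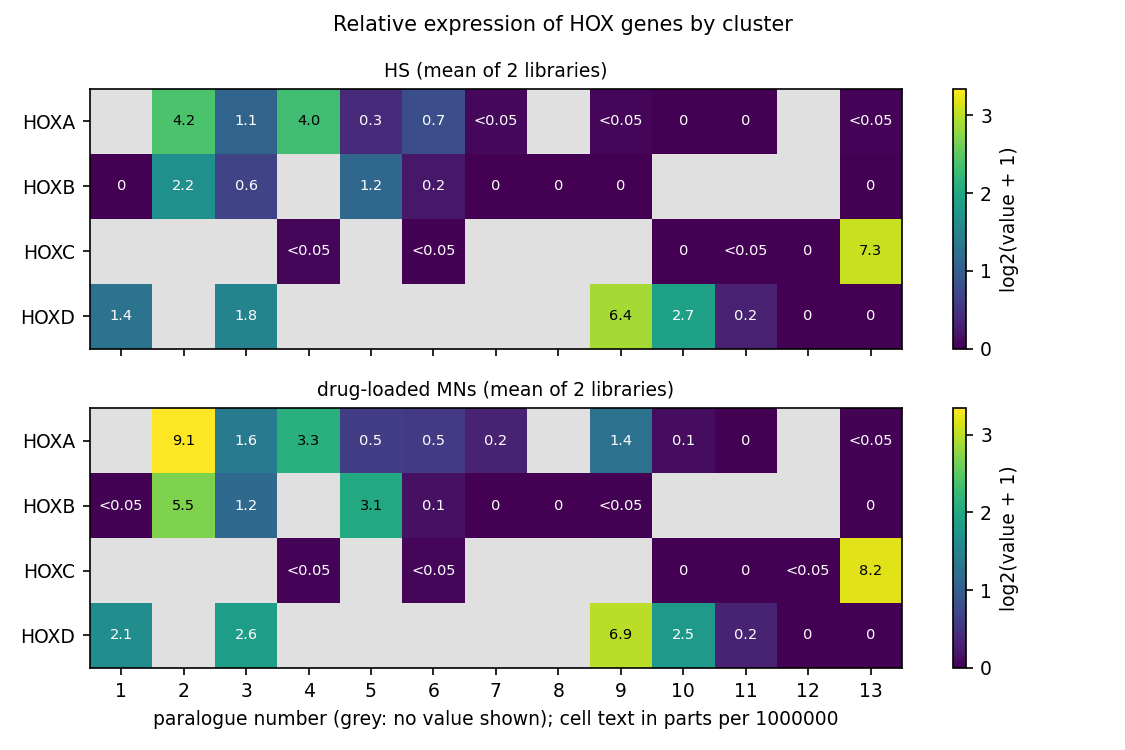
Relative expression of HOX genes by cluster (rows) and paralogue number (columns), as the mean of 2 libraries, with HS above and drug-loaded MNs below; colour shows log2(value + 1), the numbers are parts per 1000000 and grey cells show no value. Values sit at paralogues 2 to 4 of cluster A, at 2 and 5 of cluster B, at 1, 3, 9 and 10 of cluster D and at HOXC13, in both groups.

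The EMT factors, which repress epithelial genes, had 2 members, both tested. ZEB2 (ENSOCUG00000027880) stood at 68.1 and 115 units in HS and at 173 and 150 in drug-loaded MNs. The groups did not overlap, and HS replicate 1 lay far below HS replicate 2. On the log2 scale the fold change was 0.86 ± 0.29 (SE), with an adjusted p of 0.432 in limma, and without HS replicate 1 it was 0.49. ZEB1 (ENSOCUG00000006516) stood at 7.51 and 7.60 units in HS and at 12.4 and 11.0 in drug-loaded MNs, a log2 fold change of 0.57 ± 0.27 (SE), with an adjusted p of 0.632 in limma.

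ZEB2 is known also from macrophages, and all 8 macrophage markers in the table were higher in drug-loaded MNs, and their median log2 fold change was 1.14. Their sum was 91.8 and 107 units in HS, against 226 and 223 in drug-loaded MNs, and ZEB2 followed the same order over the 4 libraries. Per 1000 units of macrophage markers ZEB2 took 742 and 1071 units in HS, against 768 and 674 in drug-loaded MNs, so the groups overlapped. Against each marker on its own, ZEB2 was lower for 3 of 8 macrophage markers and overlapped for 5. It was lower for 3 of 6 fibroblast markers and overlapped for 3. The part of the macrophage markers in the ZEB2 difference was not tested. Per 1000 units of fibroblast markers ZEB1 took 0.326 and 0.338 units in HS, against 0.278 and 0.225 in drug-loaded MNs, so on that scale it was lower in drug-loaded MNs, as it was against 3 of the 6 markers on their own.

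Cartilage and bone factors had 3 members, 2 of them tested. RUNX2 (ENSOCUG00000011739), which drives bone formation and is also used by connective tissue cells, stood at 14.5 and 13.1 units in HS and at 23.5 and 22 in drug-loaded MNs. Both groups were tight, and its log2 fold change was 0.68 ± 0.25 (SE), with an adjusted p of 0.479 in limma. Set against the fibroblast markers, it took per 1000 0.631 and 0.582 units in HS, against 0.526 and 0.453 in drug-loaded MNs, which was lower without overlap. This depended on the marker, since against each of the 6 on its own the groups overlapped for 4 and RUNX2 was lower for 2. SOX5, a partner of SOX9 in cartilage, stood at 12.8 and 25.5 units in HS and at 14.5 and 15.7 in drug-loaded MNs, so HS replicate 2 alone was high. HS replicate 1, where cartilage markers summed to 869 units, had the lowest SOX5 value.

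The 9 tested epidermal regulators included 1 higher and 8 lower members, and their median log2 fold change was -0.18. In 0 of the 9 were the groups apart, against 37.8% of all genes. At an unadjusted p under 0.05 there were 0, against 8.65% of all genes. The sign rested on HS replicate 2: without it the median was 0.13, with 6 of 9 higher. TP63 (ENSOCUG00000016465), the master regulator of stratified epithelium, stood at 153 and 274 units in HS and at 211 and 155 in drug-loaded MNs. Its groups overlapped fully, with HS replicate 1 and drug-loaded MNs replicate 2 nearly equal. The log2 fold change was -0.18, with a 95% interval from -0.92 to 0.57.

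GATA3 (ENSOCUG00000017821), which acts in epidermal barrier formation, hair follicles and lymphocytes, stood at 266 and 409 units in HS and at 242 and 349 in drug-loaded MNs. KLF5 (ENSOCUG00000011318), a zinc finger gene of proliferating epithelium, stood at 441 and 893 units in HS and at 540 and 718 in drug-loaded MNs. In KLF5 the 2 HS libraries were the lowest and the highest of the 4. The log2 fold changes were -0.18 for GATA3 (95% interval from -0.87 to 0.50) and -0.01 for KLF5 (from -0.84 to 0.81).

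The TFAP2 genes also act in the epidermis. TFAP2A was highest in HS replicate 2, at 120 units, against 67.5 in HS replicate 1 and 83.5 and 74.5 in drug-loaded MNs. TFAP2B stood at 26.7 and 37.4 units in HS and at 32.2 and 25.0 in drug-loaded MNs. FOXN1 (ENSOCUG00000013779), required for hair keratinization and for the thymus, stood at 26.5 and 37.9 units in HS and at 18.2 and 28.5 in drug-loaded MNs, a log2 fold change of -0.46 ± 0.31 (SE), with an adjusted p of 0.771 in limma. SOX15 (ENSOCUG00000001100) stood at 20.5 and 12.8 units in HS and at 14 and 6.48 in drug-loaded MNs, a log2 fold change of -0.70 ± 0.40 (SE), with an adjusted p of 0.722 in limma. In both FOXN1 and SOX15 the spread within a group was as wide as the gap between the groups. DLX5 stood at 32.1 and 35 units against 31.9 and 42.9, and DLX4 at 4.53 and 4.73 against 4.64 and 3.09.

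Keratinocyte markers varied between libraries of a group. GATA3 followed the order of the summed suprabasal markers, which took 37252 and 52783 units in HS, against 31629 and 41793 in drug-loaded MNs, and per 1000 units of them it took 7.15 and 7.75 units in HS, against 7.65 and 8.35 in drug-loaded MNs. KLF5 took 11.8 and 16.9 units per 1000 in HS, against 17.1 and 17.2 in drug-loaded MNs, where the groups did not overlap and HS replicate 1 alone was far below. Against each of the 6 markers on its own, the groups overlapped for 5 and KLF5 was higher for 1. Most of the sum was KRT10, at 31734 and 45325 units in HS, against 24607 and 35763 in drug-loaded MNs. TP63 did not follow the basal markers: per 1000 units of them it took 18.8 and 50.3 units in HS, against 28.3 and 39.9 in drug-loaded MNs.

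In a list of other epidermal regulators outside the families, 3 of 11 tested genes were lower and 1 was higher at an unadjusted p under 0.05. The shares over all genes were 1.39% lower and 7.26% higher, and 0 of the list passed the adjusted threshold. ELF3, an ETS gene of epithelial differentiation, stood at 14.6 and 14.9 units in HS and at 3.66 and 5.77 in drug-loaded MNs, a log2 fold change of -1.49, with an adjusted p of 0.271 in limma. HES1, a repressor that Notch signalling turns on, stood at 445 and 613 units in HS and at 253 and 243 in drug-loaded MNs, a log2 fold change of -1.07, with an adjusted p of 0.314 in limma. The list had a median of -0.24, and 9 of 11 were lower. Without HS replicate 2 the median was 0.012 and 5 of 11 were lower.

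Hair follicle and hedgehog regulators had 7 members, 5 of them tested, 2 higher and 3 lower (1 higher under median ratio and quantile scaling). SOX9 (ENSOCUG00000011639), a factor of hair follicle stem cells and of cartilage, stood at 113 and 90.7 units in HS and at 105 and 65.8 in drug-loaded MNs, with overlap and a log2 fold change of -0.28 (95% interval from -0.94 to 0.38). Cartilage markers differed between the HS libraries by far more than SOX9 did. MSX2 (ENSOCUG00000009161), a homeobox gene of the hair matrix, stood at 4.67 and 6.55 units in HS and at 3.44 and 4.16 in drug-loaded MNs, a log2 fold change of -0.45 ± 0.30 (SE), with an adjusted p of 0.767 in limma. Its groups did not overlap. SOX13 stood at 6.75 and 6.70 units in HS and at 8.77 and 6.26 in drug-loaded MNs, and its log2 fold change of 0.12 turned negative under median ratio and quantile scaling.

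GLI2 and GLI3 carry the hedgehog signal into the nucleus. GLI2 stood at 6.41 and 4.88 units in HS and at 5.72 and 5.13 in drug-loaded MNs. GLI3 stood at 8.91 and 17.7 units in HS and at 18.9 and 16.0 in drug-loaded MNs, so HS replicate 1 alone was low, and without it the log2 fold change went from 0.43 to -0.024. In the hedgehog pathway list, 8 of 10 tested genes were higher, against 64.6% of all genes (7 under median ratio and quantile scaling). At an unadjusted p under 0.05, 1 was higher, against 7.26% of all genes. That was SCUBE2, which helps release the ligand, at 14.9 and 19.3 units in HS and at 30.2 and 35.5 in drug-loaded MNs, a log2 fold change of 0.91, with an adjusted p of 0.366 in limma. DISP1, a ligand transporter, had a log2 fold change of 0.64, with an adjusted p of 0.596 in limma. Of the ligands, SHH stood at 0 and 0.0221 units in HS and at 0.0950 and 0.0393 in drug-loaded MNs, IHH was listed at 0 in all libraries, and DHH was highest in drug-loaded MNs replicate 1, at 1.49.

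Of 3 vascular members, 2 were tested. SOX7 (ENSOCUG00000000468), a SOX gene of endothelial cells, stood at 75.6 and 76.6 units in HS and at 37.7 and 47.6 in drug-loaded MNs. The 2 HS libraries nearly coincided, and both drug-loaded MNs libraries lay well below them. The HS mean was 1.79 times the drug-loaded MNs mean, and the log2 fold change was -0.83 ± 0.23 (SE), with an adjusted p of 0.352 in limma. With 1 library left out it ran from -1.0 to -0.67, a range that could not cross 0, since the groups did not overlap. It was negative in all 14 alternatives, of which only the other scalings could have changed its sign.

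Endothelial markers, the only markers set beside SOX7, did not differ in the same way as SOX7. Their sum was 201 and 206 units in HS, against 156 and 211 in drug-loaded MNs, and 4 of 6 were higher (3 under median ratio and quantile scaling). Per 1000 units of these markers SOX7 took 376 and 372 units in HS, against 241 and 226 in drug-loaded MNs, so the groups stayed apart. SOX7 was lower without overlap against each of the 6 markers on its own. For CDH5 and PECAM1 this was fixed in advance, since they were higher in drug-loaded MNs without overlap. VWF made up 53.1% to 74.2% of the sum. Among these markers, VWF, an endothelial clotting protein, was lower, at 149 and 128 units in HS, against 83.1 and 114 in drug-loaded MNs. CDH5, the cadherin of endothelial junctions, was higher, at 2.76 and 4.30 units in HS, against 6.42 and 8.58 in drug-loaded MNs. KLF15, a glucocorticoid-responsive gene that the list placed here, stood at 5.87 and 2.36 units in HS and at 4.73 and 2.91 in drug-loaded MNs.

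Blood and immune factors had 7 members, 4 of them tested. GATA2 (ENSOCUG00000008171), a factor of mast cells and blood progenitors, stood at 35.4 and 21.0 units in HS and at 28.1 and 81.8 in drug-loaded MNs. Drug-loaded MNs replicate 2 alone was high, and the groups overlapped. The log2 fold change was 0.79 ± 0.49 (SE), with an adjusted p of 0.743 in limma, and without that library it was 0.041. GATA2 followed the order of the summed mast cell markers, at 147 and 57.7 units in HS, against 84.3 and 181 in drug-loaded MNs, and their part in it was not tested. GATA1, its relative in mast and red cells, was also highest in drug-loaded MNs replicate 2, at 4.66 units, against 0.906 to 1.58 in the other libraries.

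RUNX3, a factor of lymphocytes and Langerhans cells, stood at 10.5 and 5.0 units in HS and at 9.51 and 10.9 in drug-loaded MNs, so HS replicate 2 alone was low. FOXP3, the factor of regulatory T cells, had a mean under 1 unit and was not tested. It stood at 0.0242 and 0.0497 units in HS and at 0.677 and 0.285 in drug-loaded MNs. Of the 6 T cell markers listed, 1 (CD2) was in the table, at 0.559 and 1.24 units in HS, against 3.73 and 2.31 in drug-loaded MNs. TBX21, a factor of killer and helper lymphocytes, was at 0.493 and 0.828 units against 0.568 and 0.778. TBX6, a gene of embryonic mesoderm that the list placed here, stood at 3.30 and 2.48 units in HS and at 2.06 and 1.97 in drug-loaded MNs.

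**Figure D4:**
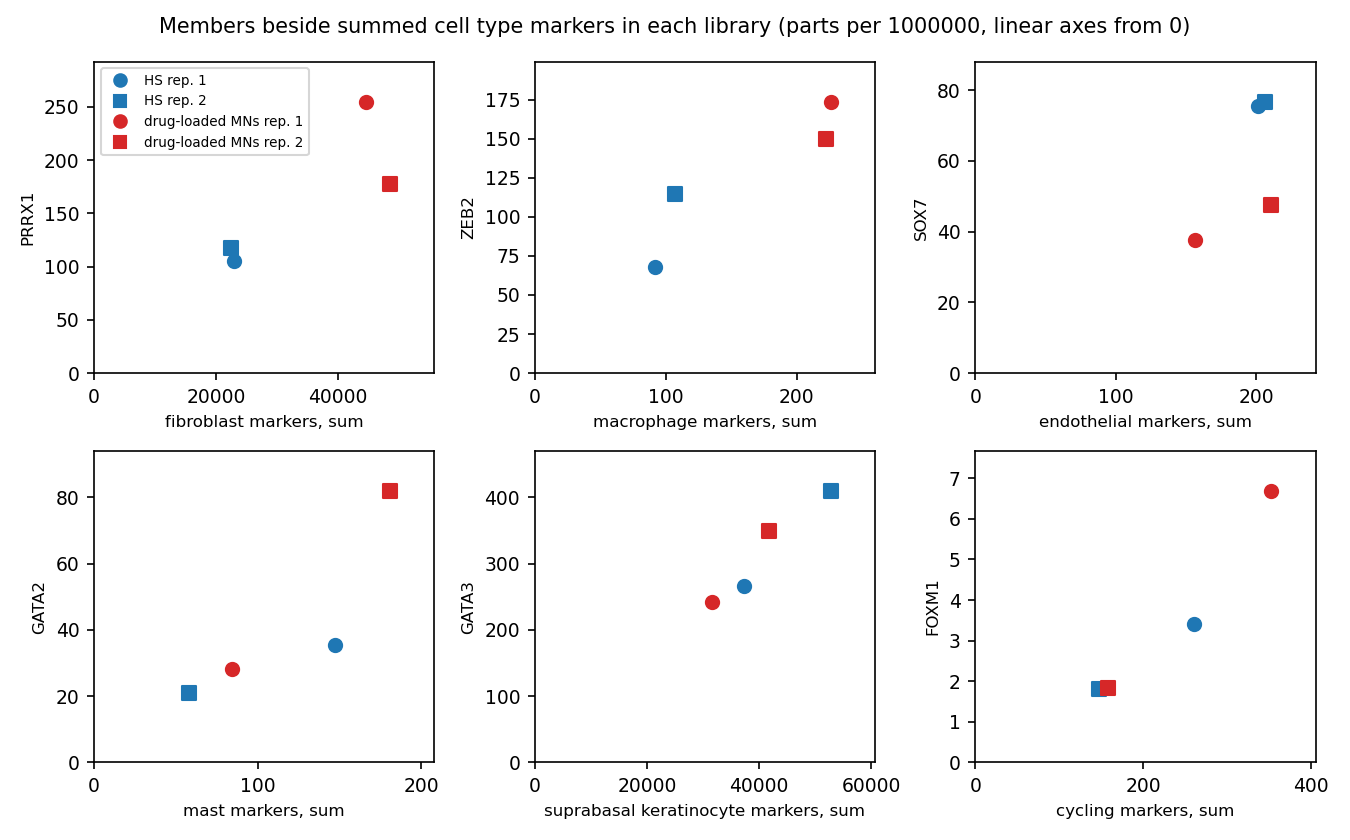
6 members (y axes) against the summed markers of a cell type (x axes), both in parts per 1000000 on linear axes from 0, 1 point per library, HS in blue and drug-loaded MNs in red. ZEB2, GATA2, GATA3 and FOXM1 have the same order of the 4 libraries as their markers, while SOX7 separates the groups at endothelial sums of 201 and 206 in HS and of 156 and 211 in drug-loaded MNs.

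Neural and neural crest factors had 17 members. Of these, 2 were tested, 10 had a mean under 1 unit and 5 (FOXR2, LHX5, PAX4, SIX6 and SOX14) were listed at 0 in all libraries. PAX3, a gene of melanocytes and their precursors, stood at 12.6 and 11.1 units in HS and at 15.8 and 10.7 in drug-loaded MNs, with overlap and a log2 fold change of 0.13 that turned negative under median ratio and quantile scaling. The summed melanocyte markers, at 333 and 137 units in HS, against 305 and 142 in drug-loaded MNs, differed more within than between groups. SOX2, a gene of hair dermal papilla, Merkel and Schwann cells in skin, stood at 0.792 and 3.62 units in HS and at 4.11 and 2.85 in drug-loaded MNs. HS replicate 1 alone was low in SOX2, and without it the log2 fold change went from 0.63 to -0.058.

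The KLF genes used in many cell types had 8 members, 6 of them tested, with 3 higher and 3 lower. KLF10 (ENSOCUG00000016141), an early response gene to TGF-beta, stood at 845 and 1028 units in HS and at 561 and 734 in drug-loaded MNs. Its groups did not overlap, and the log2 fold change was -0.54 ± 0.25 (SE), with an adjusted p of 0.619 in limma. KLF9 (ENSOCUG00000006343), which glucocorticoids induce and which slows keratinocyte division, stood at 80.1 and 133 units in HS and at 68.9 and 88.2 in drug-loaded MNs, a log2 fold change of -0.40 ± 0.30 (SE), with an adjusted p of 0.796 in limma. HS replicate 2 was the highest library in both genes.

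Genes of the dissociation response, which cells switch on during tissue digestion, were highest in HS replicate 2 too: the 5 in the table summed to 13142 and 20232 units in HS, against 12932 and 13713 in drug-loaded MNs. Per 1000 units of these genes KLF10 took 64.3 and 50.8 units in HS, against 43.3 and 53.5 in drug-loaded MNs, with overlap, and KLF9 took 6.09 and 6.57 against 5.33 and 6.43. The part of these genes in the KLF values was not tested. Against the suprabasal keratinocyte markers KLF10 took 22.7 and 19.5 units per 1000 in HS, against 17.7 and 17.6 in drug-loaded MNs, where the groups stayed apart. This depended on the marker, since against each of the 6 on its own the groups overlapped for 4 and KLF10 was lower for 2. KLF3, a repressor of the KLF family, stood at 78.4 and 127 units in HS and at 105 and 125 in drug-loaded MNs. KLF7 was at 15.8 and 23.3 units against 27.7 and 26.1, and KLF12 at 3.73 and 5.47 against 7.56 and 5.91, and in neither did the groups overlap.

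The FOX genes used in many cell types had 6 members, all tested, 4 higher and 2 lower (3 and 2 higher under median ratio and quantile scaling). FOXN3, a checkpoint repressor, stood at 64.0 and 92.1 units in HS and at 74.4 and 78.2 in drug-loaded MNs. FOXN2 stood at 27.8 and 44.1 units against 31.3 and 34.1, and FOXJ3 at 27.1 and 36.1 against 33.7 and 29.3. In FOXN2, FOXN3 and FOXJ3 the HS libraries enclosed both drug-loaded MNs libraries, and the log2 fold changes lay between -0.10 and 0.0064, the last of these below 0 under median ratio, quantile and abundant-gene scaling. FOXO3, a target of insulin and growth factor signalling, stood at 5.21 and 8.63 units in HS and at 9.28 and 9.51 in drug-loaded MNs.

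FOXM1, which drives the genes of mitosis, stood at 3.41 and 1.81 units in HS and at 6.68 and 1.82 in drug-loaded MNs. It had the same order of libraries as the summed cycling markers, at 260 and 147 units in HS, against 352 and 157 in drug-loaded MNs, so replicate 1 of each group was the higher. In the list of partners and co-regulators, 11 of 13 tested genes were higher, against 64.6% of all genes (9 under median ratio and quantile scaling). Of the 13, 0 had an unadjusted p under 0.05, against 8.65% of all genes. ID1, an inhibitor of helix-loop-helix factors, stood at 1626 and 1782 units in HS and at 1369 and 1133 in drug-loaded MNs, a log2 fold change of -0.45, with an adjusted p of 0.696 in limma. TCF12, a helix-loop-helix partner of TWIST proteins, stood at 59.1 and 83.0 units against 98.2 and 94.2, a log2 fold change of 0.45, with an adjusted p of 0.709 in limma.

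**Figure D5:**
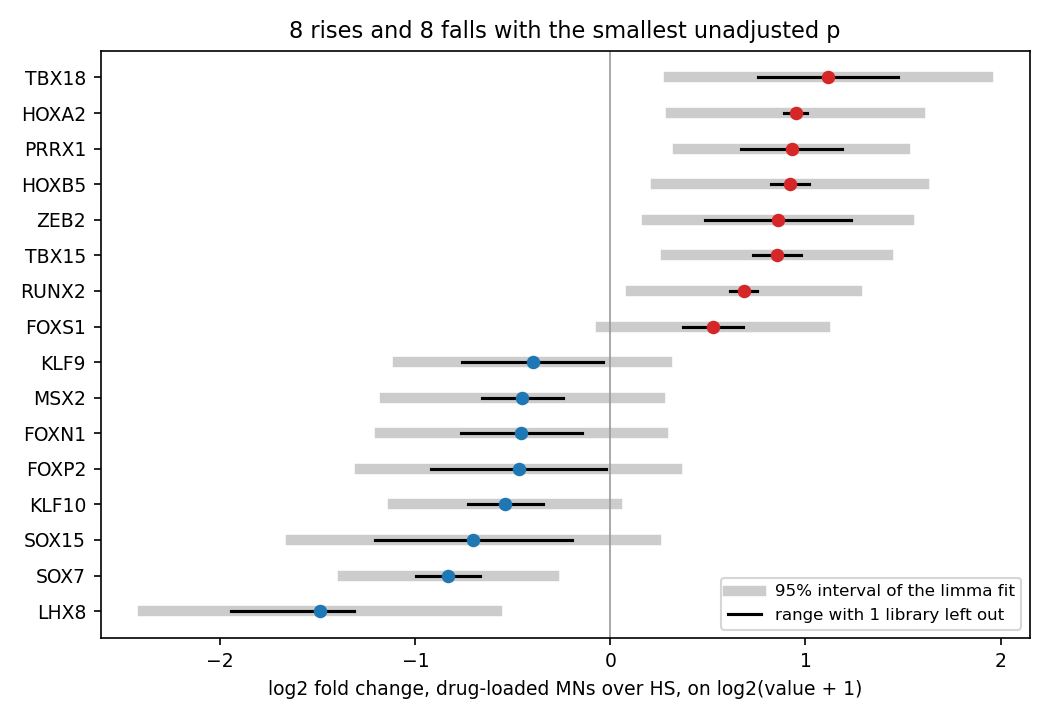
Log2 fold change of drug-loaded MNs over HS (x axis, on log2(value + 1)) for the 8 higher and 8 lower members with the smallest unadjusted p, with the 95% interval of the limma fit in grey and the range with 1 library left out in black. The black ranges stay on 1 side of 0 in all 16, but only in SOX15, FOXN1, KLF9 and FOXP2, whose groups overlapped, could they have crossed it. The intervals of 9 exclude 0, which restates the unadjusted p under 0.05 by which members were picked.

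The members together took 0.303% and 0.426% of the total in HS, against 0.327% and 0.361% in drug-loaded MNs. Among the 63 tested members, HS replicate 2 was above HS replicate 1 in 46 (73.0%, against 59.7% of all genes). The median absolute log2 difference within HS was 0.40 and within drug-loaded MNs 0.29, against a median absolute log2 fold change of 0.36 between the groups. Over all genes tested these medians were 0.33, 0.23 and 0.23. HS replicate 1 was the lowest library in 31 members (49.2%, against 44.5% of all genes), and HS replicate 2 was the highest in 23 (36.5%, against 24.2%).

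The remaining 57 members were not tested. Of these, 16 were listed at 0 in all libraries, namely the HOX and neural genes given above with GATA4, TBX5, TBX22 and KLF17. The other 41 had a mean under 1 unit, and in 37 of them no library reached 1 unit. Of the 41, the groups did not overlap in 9, with 6 higher (HOXA5, HOXA7, HOXA9, HOXB3, FOXP3 and TBX4) and 3 lower (HOXA6, FOXI1 and PAX9). Among all genes tested the share was 37.8%, with 26.6% higher and 11.2% lower, and no share was taken over untested genes. Such values lie near the floor, as in TBX4, at 0.0250 and 0.0256 units in HS, against 0.0360 and 0.0310 in drug-loaded MNs. TWISTNB, the member by letters alone, stood at 57.1 and 57.7 units in HS and at 46.1 and 56.3 in drug-loaded MNs.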

How the data were processed

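Single-cell RNA libraries were made by the authors from 2 HS and 2 drug-loaded MNs scars with the 10x Genomics method, which the authors ran through Cell Ranger (2.1.1 in the submitters' processing notes) and Seurat. Those notes name the mouse build mm10, whereas the gene identifiers are those of rabbit Ensembl genes, so the build is uncertain and no coordinates are given. The deposited signal holds 1 value per gene and library, scaled by the authors to a total of 10000. The file is named for FPKM, but no length correction is evident, and how cells were combined, how doublets were treated and whether a mentioned correction between samples was applied were not stated. The unit differs from the FPKM for which the test was planned, and the same test was kept. Whole reads could not be recovered, since 18.7% to 21.8% of low values lay within 0.1 of whole steps.

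Values were rescaled to 1000000 per library. Genes with a mean of at least 1 were kept, and the linear model of limma (lmFit, then eBayes with trend) was applied to log2(value + 1), with limma 3.58.1 under R 4.3.3, without covariates. P-values were two-sided and adjusted by the Benjamini-Hochberg method over all 9348 genes, with a threshold of 0.05. An exact permutation test of 2 against 2 libraries could not reach that threshold and was not used. The fit was tested on simulated data. Each member was given 1 role, and other genes of the same pathways and cell type markers were listed by name. Members were described with full values if past the threshold, if among the 3 highest means of their role, or if among the 8 higher or 8 lower with the smallest unadjusted p, and more were added after their values were seen. Ratios to summed and single markers were also chosen after the values were seen. The members and lists were chosen with earlier results of these data known. No set test was made. Alternatives were other scalings, pseudocounts and filters, a replicate block, a robust eBayes, an eBayes lacking the trend, and leaving out each library. Values of some members are not reported here.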

Additional observations from a re-analysis of the deposited data

How the results depend on the processing

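Genes past the threshold numbered 4 in the reported fit, 0 with median ratio scaling, with quantile normalization, with a total without abundant genes, with a pseudocount of 5 and with no filter on low values, 1 with eBayes without trend, and 0 to 75 with 1 library left out, where the lone library of a group was assumed to vary as the other group does. The number of members past the threshold was 0 in all alternatives but the replicate block. Members at an unadjusted p under 0.05 numbered 5 to 11 higher and 1 to 7 lower with 1 library left out, and 1 was lower with a minimum mean of 5. The cause was not tested.

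In the fit with a replicate block, 241 genes and 2 members (PRRX1 and LHX8) passed, and 4 members were lower at an unadjusted p under 0.05. Deviations of same-numbered libraries from their group means correlated at 0.22 across genes, and 2 pairs cannot establish a pairing, so the libraries share only a number.

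The median of all genes came to -0.010 by median ratio scaling and to -0.020 by quantile normalization, and the share of higher genes at an unadjusted p under 0.05 was 64.1% and 58.9%. The HOX median (0.35) was 0.10 under quantile normalization, 0.49 with a pseudocount of 0.1, 0.15 with a pseudocount of 5, 0.11 without filter, 0.11 with a minimum mean of 5, and 0.24 to 0.39 with 1 library left out. Under quantile normalization the hair follicle and hedgehog median was -0.29. Without filter, where more members were tested, the cartilage and bone median was -0.0057, the neural median -0.012 and the vascular median -0.020, and with a minimum mean of 5 the vascular median was -0.83. With 1 library left out, medians ran from -0.11 to 0.91 for blood and immune factors, from -0.49 to 0.13 for epidermal regulators and from -0.19 to 0.24 for widely expressed FOX genes.

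Of 38 members named by the rule, 20 kept their direction in every alternative that gave a value. Where the groups did not overlap, leaving out 1 library could not change the direction. Median ratio scaling gave -0.015 for HOXD9, -0.0050 for PAX3, -0.13 for FOXJ3, -0.017 for HOXC13, -0.0033 for SOX13 and -0.060 for IRX5. Quantile normalization gave -0.13 for HOXD9, -0.060 for PAX3, -0.10 for FOXJ3, -0.12 for HOXC13, -0.11 for SOX13 and -0.0032 for IRX5, and a total without abundant genes gave -0.0019 for FOXJ3. With 1 library left out, the log2 fold change ran from -0.19 to 0.21 for FOXJ3, -0.42 to 0.22 for FOXN2, -0.27 to 0.25 for FOXN3, -0.49 to 0.13 for GATA3, -0.024 to 0.89 for GLI3, -0.17 to 0.39 for HOXC13, -0.090 to 0.31 for HOXD9, -0.067 to 0.23 for IRX5, -0.54 to 0.50 for KLF15, -0.15 to 0.54 for KLF3, -0.52 to 0.50 for KLF5, -0.13 to 0.39 for PAX3, -0.042 to 0.90 for RUNX3, -0.090 to 0.34 for SOX13, -0.058 to 1.31 for SOX2, -0.72 to 0.22 for SOX5, -0.61 to 0.058 for SOX9 and -0.60 to 0.24 for TP63. None of these passed the threshold. The limit set by depth could not be measured, since the values used here are not counts.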
